A study of Mus musculus with 7 samples.

Results

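HuR is the product of Elavl1. It binds U-rich and AU-rich stretches of mRNA, and is known mainly for raising the stability or the translation of the messages it holds. Ptma, Hmgb1, Xiap, Mdm2, Tlr4 and Plaur are among the genes whose mRNAs are reported in the literature as HuR targets, and they are described here by every site that the authors' lists give for them in HuR immunoprecipitates of mouse colon cancer cells. Their proteins fall into 3 kinds: the abundant nuclear proteins Ptma and Hmgb1, the survival regulators Xiap and Mdm2, and the surface receptors Tlr4 and Plaur. The genes were taken by name from the list of each HuR immunoprecipitation, which gave 12 sites in 6 genes, of 18072 sites in 6277 genes in all. Since these genes were taken up with their sites and folds already known, all of their values are a description, and no test was made on them.

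The cells were CT26.WT, a mouse colon carcinoma line of wild-type genotype with no treatment, and all samples share this background. RNA was pulled down with an antibody to endogenous HuR in 3 samples and with control IgG in 3 samples, and 1 input of total RNA was also described. Neither the IgG libraries nor the input were analysed here. Which of them served as the control of the folds, and whether all 3 lists had the same one, is not stated in the sources used here. Read depth is unknown, each site comes from a single library without replicate error, and separate cultures for the 3 immunoprecipitations are not stated in the labels.

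The lists of immunoprecipitations 1, 2 and 3 hold 4722, 5384 and 7966 sites. A site is given by its bounds on the mouse genome build mm39, a fold enrichment (the caller's signal over its control), a score that rises as the caller's p falls (its log10 times -10) and an FDR read as percent, all of them the authors' values. Across the sites of a list the score and the FDR had a Spearman correlation of -0.92 in list 1, -0.87 in list 2 and 0.99 in list 3, so a low FDR goes with high scores in lists 1 and 2, apart from their highest scores, and with low scores in list 3. Median folds were 7.21, 6.41 and 8.38, and median lengths were 176, 161 and 152 bases. Of the markers of colon epithelium 2 of 9 had a site, Krt18 in list 2 and Krt20 in lists 2 and 3, of the fibroblast markers 2 of 4, Col1a1 in list 1 and Pdgfra in list 3, and of the leukocyte markers 0 of 5. A listed site is not an expression level, so this does not measure the makeup of the cells.

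List 1 held 3 sites of the 6 genes, list 2 held 2 and list 3 held 7. Ptma, Hmgb1 and Xiap had a site in list 1, Ptma and Mdm2 in list 2, and Xiap, Mdm2, Tlr4 and Plaur in list 3. Of the 6277 genes listed anywhere, 54.5% were in list 1, 57.8% in list 2 and 62.8% in list 3. Ptma, Xiap and Mdm2 were found in exactly 2 lists, the other 3 genes in exactly 1, and 0 of 6 in all 3. Over all genes with a site the shares were 35.3% for exactly 2 lists, 44.8% for exactly 1 and 19.9% for all 3, and because the genes were chosen on these lists nothing is read from the comparison. Folds ran from 4.08 to 15.25, scores from 56.44 to 3100 and lengths from 75 to 4715 bases. Of the 12 sites 8 had a fold above the median of their list, 6 a score above it and 10 a length above it. A score of at least 70 was reached by 10 of them, 3 of 3 in list 1, 2 of 2 in list 2 and 5 of 7 in list 3, beside 67.4, 62.6 and 65.6% of all sites in these lists. A fold of at least 5 was reached by 11, 3 of 3, 1 of 2 and 7 of 7, beside 84.4, 75.7 and 95.1% of all sites.

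**Figure D1:**
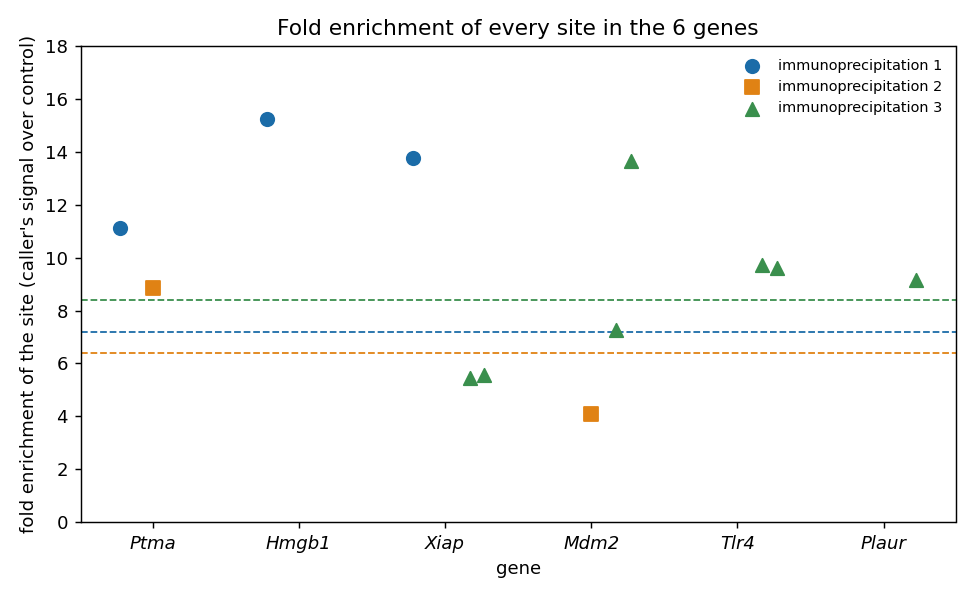
Fold enrichment (y axis, the caller's signal over control) of every listed site in the 6 genes (x axis), with circles, squares and triangles for immunoprecipitations 1, 2 and 3 and dashed lines at the median fold of all sites in each list in the same colour. The 3 sites of list 1 lie at 11.11 to 15.25, above their line at 7.21, while the 2 Xiap sites of list 3 lie at 5.45 and 5.56, below theirs at 8.38.

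Ptma encodes prothymosin alpha, a small, highly acidic nuclear protein that also restrains assembly of the apoptosome, and HuR is known from human cells to promote its translation. In list 1 its site lay at chr1:86457687-86458434, 748 bases long, with a fold of 11.11 and a score of 3100. In list 2 its site lay at chr1:86454448-86454672, 225 bases long, with a fold of 8.86 and a score of 708.58. List 3 had no Ptma site. Ptma was thus found in both lists 1 and 2 at different places: 3014 bases lie between its sites. All distances between sites are counted on the chromosome and may include introns, so they are not distances along the mRNA. Ptma is on the plus strand in RefSeq's GRCm38 annotation, so the site of list 1 is the one nearer the 3′ end, and both were assigned by the files to the same transcript, ENSMUST00000045897.

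By score the Ptma sites stood near the top of both lists. The site of list 1 ranked 2 of 4722, as 1 of 6 sites with the same score of 3100 and below 1 site, and that of list 2 ranked 18 of 5384. By fold they ranked 497 and 785, further down. A score of exactly 3100 was also held by 4 sites of list 2, so it may be a fixed value set by the caller. It is not an upper bound, since 1 site of list 1 and 1 site of list 3 scored above it. If it is a fixed value, the order of the sites at 3100 is unknown, both among themselves and against the higher site of list 1. The caller's FDR of the list 1 site was 38.96%, the highest of the list, and the 6 sites at a score of 3100 were the 6 with that FDR. The FDR of the list 2 site was 16.55%, above the list's median of 13%. The list 2 site ranked 18 from the top by FDR as it did by score, and the Hmgb1 site described next ranked 22 on both, so a high FDR at the highest scores is not particular to Ptma.

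Hmgb1 encodes a DNA-bending chromatin protein that acts as an inflammatory signal once it leaves the cell. It had 1 site, in list 1, at chr5:148984043-148985723, 1681 bases long. Its fold of 15.25 was the highest of the 12 sites and ranked 129 of 4722 in the list, its score of 1182.54 ranked 22 and its length ranked 49. Sites of 1000 bases or more made up 4.07% of list 1. The FDR was 20.08%, against a median of 15.53% for the list. No site of any gene lay near it in the other immunoprecipitations: the nearest was 1498736 bases away in list 2, in Pan3, and 128476 bases away in list 3, in Katnal1.

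Ptma and Hmgb1 have pseudogene copies that resemble their mRNAs. RefSeq's GRCm38 table names 2 pseudogenes of Ptma and 13 of Hmgb1, against 0 for each of Xiap, Mdm2, Tlr4 and Plaur. Of these copies 0 had a listed site. The lists are named as sites of mRNA, so copies that are not mRNAs may be left out whatever their signal. Nothing is read from this 0. How reads that match several copies were handled is not given in the sources used here, so the assignment of the Ptma and Hmgb1 sites is uncertain, and its part in their scores was not tested.

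Xiap encodes an inhibitor of apoptosis that binds and blocks caspases, and its translation is known from human cells to be promoted by HuR. In list 1 it had a site of 475 bases at chrX:41157275-41157749 with a fold of 13.77 and a score of 243.13. In list 3 it had a site of 201 bases at chrX:41190873-41191073, with a fold of 5.45 and a score of 60.34. The other site of list 3, at chrX:41193668-41198382, was 4715 bases long, with a fold of 5.56 and a score of 56.44. List 2 had no Xiap site.

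The Xiap sites of the 2 lists differed in place, length and rank. Between the site of list 1 and the nearer site of list 3 lay 33123 bases, and the files give transcript ENSMUST00000115095 for the former and ENSMUST00000026978 for both of the latter. Xiap is on the plus strand in RefSeq, so the list 3 sites lie on the 3′ side. The list 1 site ranked 190 by fold and 301 by score of 4722, and 17 sites of that list, itself included, had exactly its fold. The list 3 sites ranked 7269 and 7181 by fold and 6327 and 6920 by score of 7966. Of the sites of list 3, 8.76 and 9.87% had a fold no higher than theirs, and 20.6 and 13.1% a score no higher. The longer one was among the longest sites of list 3, ranking 13 of 7966 by length, where sites of 1000 bases or more made up 7.33%. Its FDR was 9.4% and that of the shorter one 9.47%, in a list where low values go with low scores. The list 1 site had 14.12%, in a list where low values go with high scores and the lowest value is 14.06%.

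Mdm2 encodes the ubiquitin ligase that marks p53 for destruction, and HuR is known from mouse progenitor cells to sustain its mRNA. It had a site of 156 bases at chr10:117528487-117528642 in list 2, with a fold of 4.08 and a score of 71.86. List 3 gave the same bounds with a fold of 7.25 and a score of 101.2. List 3 gave a further site of 75 bases at chr10:117541060-117541134, with a fold of 13.66 and a score of 81.87. List 1 had no Mdm2 site. The 156-base site was the only one of the 6 genes to recur at the same position: it is the 1 region of these genes with sites of more than 1 list, and both its start and its end were the same in lists 2 and 3.

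The recurring Mdm2 site was not a prominent one by fold. It ranked 4842 of 5384 in list 2 and 5279 of 7966 in list 3, below both medians, whereas the 75-base site ranked 444 of 7966 and was among the shortest, at 7498 by length. By score they lay mid-list, at 3228 of 5384 for the list 2 site and at 2918 and 4159 of 7966 for those of list 3. The FDR was 13.02% in list 2 and 9.87% and 9.73% in list 3. Mdm2 is on the minus strand in RefSeq, so the 75-base site lies on the 5′ side, 12417 bases from the other. The site numbers of each list rise with position along each chromosome, and the 2 Mdm2 sites of list 3 carry the numbers 4330 and 4332, so 1 call between them is not in the list.

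**Figure D2:**
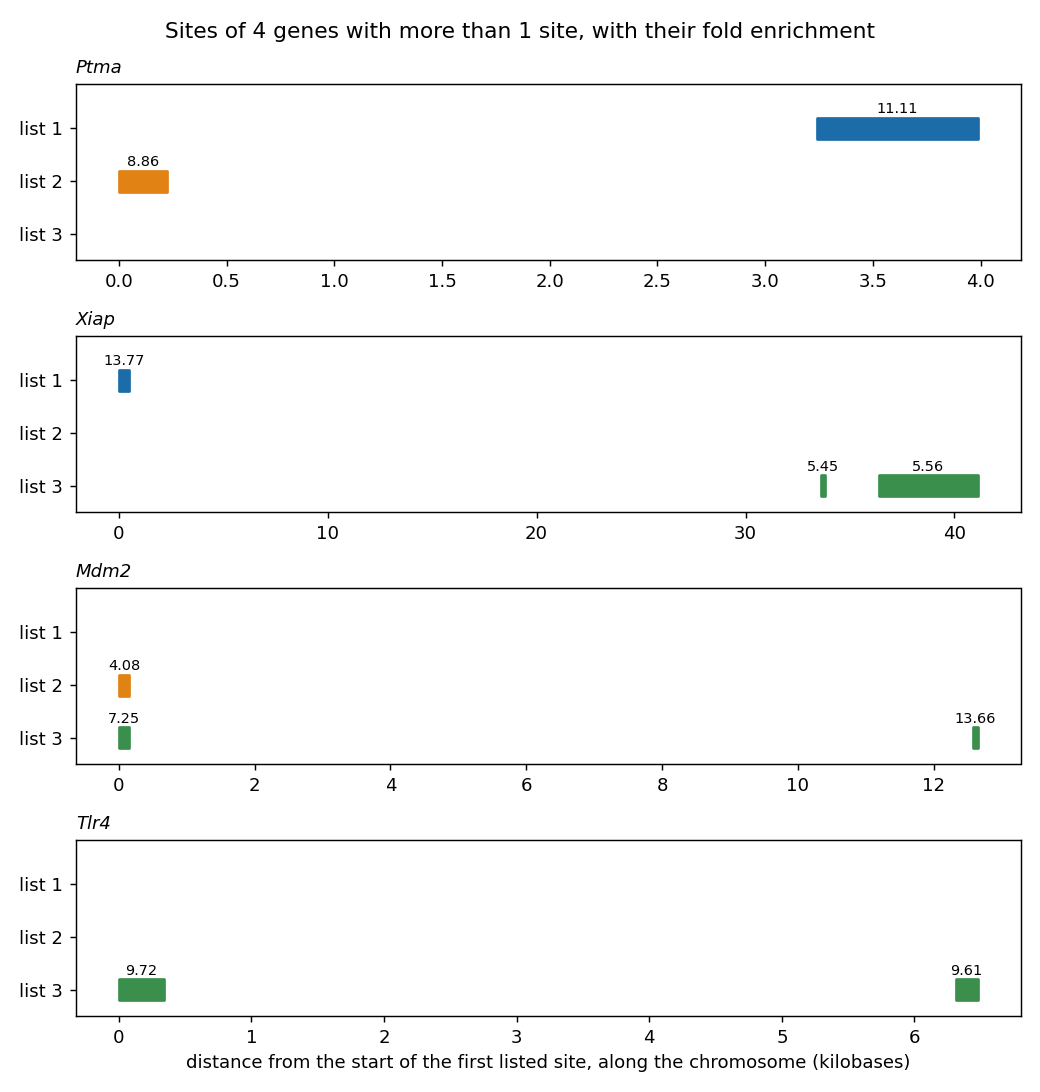
Position of every listed site of Ptma, Xiap, Mdm2 and Tlr4 (x axis, distance in kilobases along the chromosome from the start of the first site, to scale within each panel), with lists 1, 2 and 3 on separate lines and the fold enrichment printed over each bar. The sites with folds of 4.08 and 7.25 in Mdm2 have the same bounds, while the Ptma sites and those of Xiap in different lists do not meet.

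Whether a gene found by a pair of lists is also found at one place was set beside all genes found by exactly that pair. Of the 568 genes in exactly lists 1 and 2, as Ptma, 49.6% had an overlapping site, by at least 1 base. Of the 654 in exactly lists 1 and 3, as Xiap, 33.8% did, and of the 995 in exactly lists 2 and 3, as Mdm2, 49.9% did. Identical bounds, as in Mdm2, were found for 29.8, 23.2 and 38.4% of the genes of these pairs. So neither a recurring site such as that of Mdm2 nor sites apart such as those of Ptma were rare among genes of the same pair. Where sites did not overlap, the nearest ones were a median of 5438 bases apart in lists 1 and 2 and 8798 in lists 1 and 3. Of such genes 33.2% had their sites nearer to each other than Ptma and 85.9% nearer than Xiap. These distances follow gene length too, which was not taken into account.

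Tlr4 encodes the innate immune receptor for bacterial lipopolysaccharide. It had 2 sites, both in list 3. The site at chr4:66745821-66746158 was 338 bases long, with a fold of 9.72, a score of 71.83 and an FDR of 9.56%. The site at chr4:66752131-66752297 was 167 bases long, with a fold of 9.61, a score of 76.71 and an FDR of 9.68%. Both folds lay above the list's median of 8.38, at ranks 2463 and 2539 of 7966, and both scores below its median of 83.79, at ranks 5052 and 4571. The fold of 9.61 is a common value, held by 151 sites of list 3, and how many reads it rests on is unknown.

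The Tlr4 sites were numbered 25261 and 25262, so no unlisted call lay between them, as with the Xiap sites 38998 and 38999. List 3 held 900 genes with exactly 2 sites, 22.8% of its genes, with a median of 7837 bases between the sites. The sites of Tlr4 lay 5972 bases apart, those of Xiap 2594 and those of Mdm2 12417. In lists 1 and 2 the sites nearest to Tlr4 belonged to other genes, Tmem268 and Cdk5rap2, and were 3257490 and 3408410 bases away.

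Plaur encodes the receptor that holds urokinase at the cell surface, and binding of HuR to its mRNA is known from human cells. Its 1 site, in list 3 at chr7:24174664-24175391, was 728 bases long, with a fold of 9.16, a score of 163.39 and an FDR of 10.24%. It had the highest score of the 7 sites in list 3, at rank 1074 of 7966, with a fold at rank 3116 and a length at rank 862. The nearest site of list 1 was in Cadm4, 23189 bases away, and that of list 2 in Irgq, 55417 bases away.

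**Figure D3:**
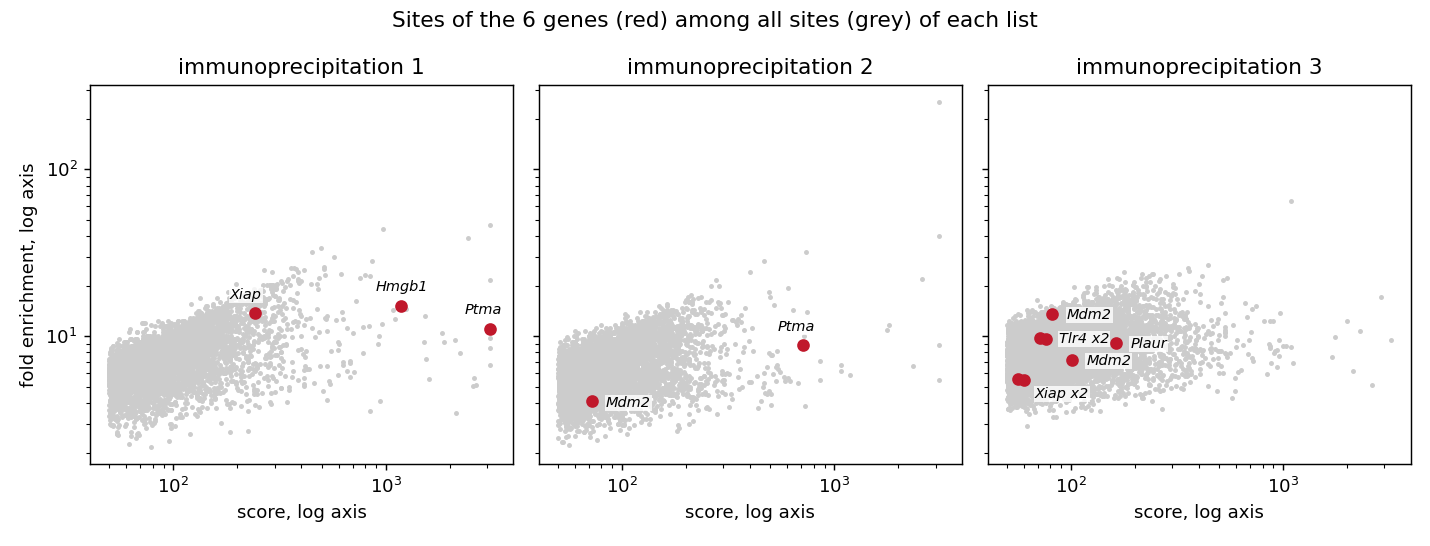
Fold enrichment (y axis, log) against score (x axis, log) of all sites in each list, in grey, with the sites of the 6 genes in red and "x2" where a label stands for 2 sites. Hmgb1 and Ptma lie at scores of 1182.54 and 3100 in list 1 and Ptma at 708.58 in list 2, to the right of nearly all sites, while the sites of Mdm2, Tlr4 and Xiap in list 3 lie at 56.44 to 101.2, inside the cloud.

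For each of the 3 genes found in 2 lists the genes nearest in best fold were looked up. Among so many genes some are bound to lie close, so the values below only describe the neighbours. Likeness was measured as the Euclidean distance between the log2 values of the best folds in the same 2 lists. Nearest to Ptma among 567 genes was B3gnt2, a glycosyltransferase gene, with folds of 11.19 and 8.86 in lists 1 and 2 (distance 0.01), followed by Aoc2 with 11.48 and 8.81 (0.05). Nearest to Xiap among 653 genes was Kif3a, a kinesin motor gene, with 12.9 and 5.81 in lists 1 and 3 (0.11), followed by Zfp960 with 15.15 and 5.54 (0.14). The best folds of Mdm2, 4.08 and 13.66, belong to different sites 12417 bases apart. Nearest to it among 994 genes was Cdc27, a gene of the anaphase-promoting complex, with 4.13 and 13.08 in lists 2 and 3 (0.07), followed by the phosphatase gene Ptpn12 with 4.06 and 12.81 (0.09).

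The 6 genes were then set beside 40 other genes reported as HuR targets, of which 15 had a site and 25 had none. Fos, Jun, Myc, Mycn and Vegfa were among the 25. The share of all annotated or expressed genes with a site is not known here, so the count of 15 is no recovery rate. Among the 15, 7 were in exactly 1 list, 6 in exactly 2 and 2 in all 3, so that 8 (53.3%) were in at least 2 lists. For the 6 genes the count was 3 (50%), and for all genes with a site the share was 55.2%. Of all 46 genes 21 had a site, 7 of them in list 1, 14 in list 2 and 13 in list 3. Beside these counts stand 54.5, 57.8 and 62.8% of all genes with a site. Of the 46 genes 11 were in at least 2 lists. Of these 11, 4 had a region common to at least 2 lists: Mdm2, Elavl1, Hif1a and Hdac2. Such a region was found for 56.5% of all genes in at least 2 lists.

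Hif1a, which encodes the oxygen-regulated transcription factor, had 2 such regions, both in lists 2 and 3. At chr12:73987122-73987405 the bounds were the same in both, with folds of 3.23 and 5.83, and at chr12:73979048-73979440 the site of list 2, with a fold of 3.85, lay inside a longer one of list 3 with a fold of 6.39. Like the recurring Mdm2 site, these sites lay below the median fold of each list. Hdac2, a histone deacetylase gene, had sites in all 3 lists and shared the bounds chr10:36850540-36850799 between lists 1 and 2, with folds of 8.3 and 6.3. Elavl1 was also in all 3 lists and shared chr8:4354927-4355030 between lists 2 and 3, with folds of 5.16 and 10.87. Nf1, Ccna2, Cdkn1b, Sirt1 and Casp2 were found in 2 lists at different places, as were Ptma and Xiap.

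**Figure D4:**
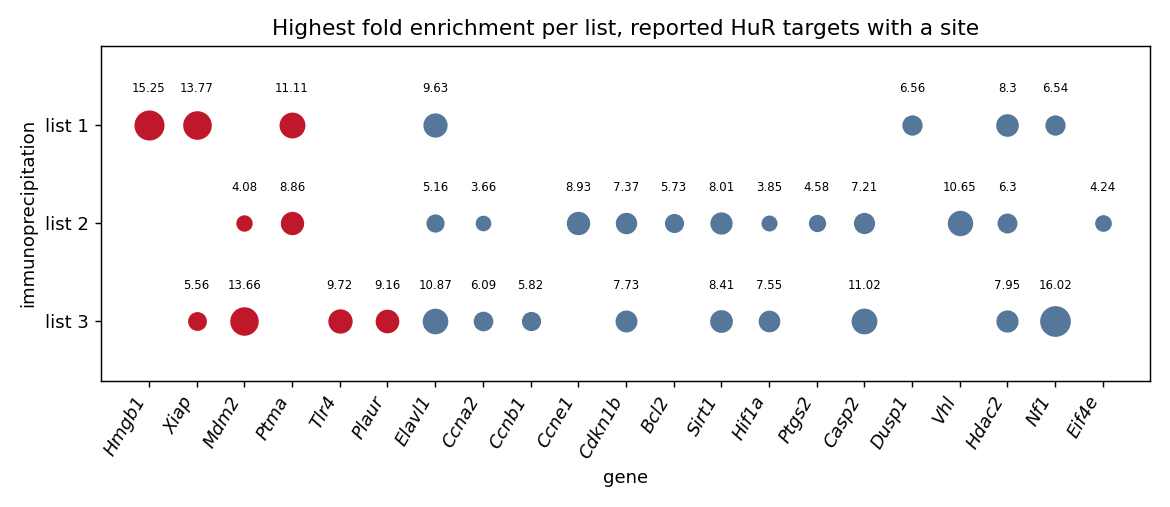
Highest fold enrichment in lists 1, 2 and 3 (rows) of the 21 reported HuR targets with a site (x axis), as printed over each point, with point area in proportion to the fold, the 6 genes in red and the other 15 in blue. Elavl1 and Hdac2 have a point in every row. Lists 1, 2 and 3 have 7, 14 and 13 points, beside 54.5, 57.8 and 62.8% of all genes with a site.

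The pathway names that the files attach to the genes gave a further view of what they share. Mdm2, Tlr4 and Plaur carry the name proteoglycans in cancer, the pathway name common to the most of the 6 genes. Xiap and Mdm2 share ubiquitin mediated proteolysis, and Xiap and Tlr4 share NF-kappa B signaling. In all, 7 names are carried by 2 or more of the 6 genes. Of the genes with a site that carry them, the share in at least 2 lists was 64.4% for proteoglycans in cancer, 69.9% for ubiquitin mediated proteolysis, 62.7% for pathways in cancer and 62% for toxoplasmosis. It was 55.1% for Epstein-Barr virus infection, 53.7% for PI3K-Akt signaling and 45% for NF-kappa B signaling, beside 55.2% of all genes with a site. Hmgb1 carries base excision repair alone, and Ptma carries Epstein-Barr virus infection alone, a name it shares with Mdm2.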

How the data were processed

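RIP-seq sites of 3 HuR immunoprecipitations from CT26.WT cells were analysed. Per the submitters' processing notes, FastQC, cutadapt 1.9.3, STAR and HISAT2 2.0.4 were used with build mm39, with no role or order given. Site names carry the prefix of the MACS caller, with its version, settings and control not given in the sources used here. The deposited fold is a ratio of signal over control and the deposited score is the log10 of the caller's p times -10, per the file headers. The authors' FDR is read as percent from its range. Each list holds part of the numbered calls (highest numbers 35258, 37141 and 39806), so a gene without a site may have had a call.

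Genes were matched by the files' GeneName. Sites were half-open intervals, printed with the start counted from 1, and overlapped when they shared at least 1 base; this step was tested on simulated intervals. Of the 12 sites 11 are in the authors' joined list, which leaves out the Mdm2 site of list 3 that repeats a site of list 2. Ranks count from the highest value, ties at the best rank. Strands came from RefSeq's GRCm38 promoter table for 5 of the genes (Tlr4 is not in it), and pseudogene names from RefSeq's GRCm38 gene table; no coordinates of that build were used. The genes, the list of 46 reported HuR targets and the markers were chosen with earlier results of these data known. That list of targets was written from general knowledge of the literature. Named genes were the 6 genes, the reported targets in all lists or with overlapping sites in at least 2, and for each gene in 2 lists the 2 genes nearest in best folds. Further targets in 2 lists, the Krt18, Krt20, Col1a1 and Pdgfra markers, and genes nearest in position were named after their values were seen. Targets without a site were named likewise. Site sequences and exon positions were not used here, because no mm39 genome was given. Analyses used Python 3.11.15, pandas 2.3.3, numpy 2.4.6 and matplotlib 3.10.9. Alternatives were a score of at least 70, a fold of at least 5, lists of equal length, other overlap rules, gene identifiers, and leaving out each immunoprecipitation.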

Additional observations from a re-analysis of the deposited data

How the results depend on the processing

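The 6 genes gave 12 sites by name and by gene identifier, 10 at a score of at least 70, 11 at a fold of at least 5 and 9 with lists of equal length (the 4722 sites of highest score). At a score of at least 70 and with lists of equal length Xiap lost both sites of list 3 and was left in list 1 alone, so that 2 of the genes, Ptma and Mdm2, were in at least 2 lists in place of 3. At a fold of at least 5 the Mdm2 site of list 2 dropped out, which left 2 genes in at least 2 lists, Ptma and Xiap, 1 site of the 6 genes in list 2 and 0 regions shared by lists. With lists of equal length list 3 kept 4 of its 7 sites. The 1 shared region was unchanged when the overlap had to cover 50% of the shorter site and when sites within 1000 bases were joined. With any 1 immunoprecipitation left out, 1 of the genes was in both remaining lists, against 3 in at least 2 and 0 in all 3 of the full set. There were then 0 to 1 shared regions, with 0 without immunoprecipitation 2 or 3, and 3 to 8 reported HuR targets in 2 lists, against 11. The settings that changed a count compare fewer sites or lists. Shares of all genes in at least 2 lists are not given for these settings, so nothing is read from the changes. No paired analysis was possible because no value per library was at hand for IgG, only the sites called in HuR samples. A gene without a listed site may still have had a call, since depth is unknown and the lists leave out calls.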

Other observations

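Genes whose proteins act with those of the 6 genes were looked up after the sites had been seen, as a description with no test. Of 21 such genes 9 had a site and 12 had none, among them Trp53, Plau, Ly96 and Myd88. Without the share of all annotated or expressed genes that have a site, nothing is read from this count. Of these 9 genes 4 were in at least 2 lists, beside 55.2% of all genes with a site. Overlapping sites of different lists were found in Mtbp, Mdm4 and Casp9, 3 of the 4, and not in Itgb1, beside 56.5% of all genes in at least 2 lists. Mtbp, whose product binds Mdm2, had 2, 5 and 2 sites in lists 1, 2 and 3. Its bounds chr15:55436292-55436364 were the same in lists 1 and 2, with folds of 14.23 and 9.21, as were chr15:55480878-55481144, with folds of 3.33 and 6.17. A further site, chr15:55429590-55429734, recurred in lists 2 and 3, with folds of 3.77 and 6.51. Mdm4, which encodes a p53 inhibitor that pairs with Mdm2, had chr1:132924301-132924447 in lists 1 and 2, where the fold was 10.3 and 11.21; list 3 lacked it.

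Casp9, which encodes a caspase that Xiap restrains, had overlapping sites at chr4:141541684-141542162 in list 1, with a fold of 8.72, and at chr4:141541655-141542234 in list 2, with a fold of 12.01. Birc6, which encodes a very large inhibitor of apoptosis protein, had 5 sites, all in list 3, and Birc2 had 1 there. Hmgb3, a paralog of Hmgb1, had a site of 1010 bases (fold 10.41, score 699.42) in list 1 and, like Hmgb1, none elsewhere. Hmgb2, a further paralog, had no site. Of all genes with a site 44.8% were in exactly 1 list, so nothing is read from this likeness.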
